A study of Mus musculus with 10 samples.

Results

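A set of genes of mitochondrial turnover and shape was followed in lineage-negative (Lin-) bone marrow cells. The 10 genes of the set, of 55359 in the table, were chosen by name for their role, with earlier results of these data known. Bnip3, Bnip3l, Fundc1, Pink1 and Tspo encode proteins of the mitochondrial outer membrane with known roles in mitophagy. Mfn1, Mfn2, Opa1, Dnm1l and Fis1 encode the machinery of mitochondrial fusion and fission. All 10 were found in the table and all 10 passed the filter on low values, which asked for a mean over all libraries of 0.1 FPKM or more. FPKM count the fragments of a gene relative to its length and to the depth of its library.

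RNA was sequenced in 5 libraries labelled WT, of genotype Dhx9f/f, and in 5 labelled cKO, of genotype Dhx9f/f;MX1. Another label gives the cKO genotype as Dhx9 knock down. The sample titles number replicates only. Each library was taken as 1 mouse, since the study's general methods count individual mice as replicates. Mice of both groups carry floxed Dhx9. The cKO mice also carry Cre under the Mx1 promoter, which responds to interferon in many cell types and was switched on with poly(I:C), a double-stranded RNA mimic. Age and strain are not given for these mice, and whether the WT mice sequenced here also received poly(I:C) is not stated for this experiment. The study's general methods time the analysis of mice from the first dose, and its transplantation experiment took donor cells of both genotypes after poly(I:C). Where WT mice went without it, an effect of poly(I:C) and one of the genotype cannot be told apart.

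Mitophagy is the removal of mitochondria by autophagy. BNIP3, its paralog NIX (the product of Bnip3l) and FUNDC1 sit in the outer membrane and bind LC3-family proteins directly, whereas the kinase PINK1 accumulates on depolarized mitochondria and marks them for removal. NIX is known for the clearance of mitochondria from maturing red cells, and BNIP3 for its induction by hypoxia. Mitofusins fuse the outer membranes, OPA1 fuses the inner membranes and shapes cristae, and DRP1 (the product of Dnm1l) constricts mitochondria after recruitment by outer-membrane adaptors.

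Depth, read from low values of genes with a single transcript, was 15044550 to 18713800 fragments in WT and 13839650 to 17192350 in the libraries labelled cKO. The targeted gene went against the labels: Dhx9 was at 69.7 ± 2.84 FPKM in WT and 139.9 ± 11.98 in the libraries labelled cKO (SD, n = 5 each). Directions below therefore rest on the labels. Xist was above 1 FPKM only in WT 3, 4 and 5, so the sexes were unevenly spread over the groups. Lineage markers also differed, although all cells were taken as Lin-. Of 21 erythroid markers tested, 20 rose, and their summed level was 1982 to 3522 FPKM in WT and 5442 to 8939 in the libraries labelled cKO. The summed level of 15 monocyte and dendritic cell markers was 1124 to 1922 FPKM in WT and 12.2 to 353 in the libraries labelled cKO, where 14 of the 15 fell. In bulk RNA, fewer cells of a type and less RNA per cell cannot be told apart, and the part of these markers in the results on the 10 genes was not tested.

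In the libraries labelled cKO, 4 mitophagy genes were lower and 1 fusion gene was higher. Bnip3, Fundc1 and Tspo fell to 59.3%, 60.3% and 69.3% of the WT mean, and Pink1 to 65.9% with an adjusted p just under the limit. Opa1 rose to 136.3% of the WT mean. Bnip3l, Mfn1, Mfn2, Dnm1l and Fis1 did not pass the test. A gene passed at an adjusted p under 0.05 (limma on log2(FPKM + 0.1), Benjamini-Hochberg adjustment over all genes tested). Among all 18742 genes tested, 16.7% passed as higher and 28.3% as lower, so the counts of 1 and 4 among the 10 stand against a background in which many genes changed. None of the 10 reached a 2-fold change with an adjusted p under 0.05, which 4.6% of all genes did as higher and 16.8% as lower. The median log2 fold change was -0.07 over the 10 genes and -0.11 over all genes tested. Of all genes that passed, 37.2% were higher, and 54.5% were under quantile normalization, which moved the median of all genes to 0.10.

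**Figure D1:**
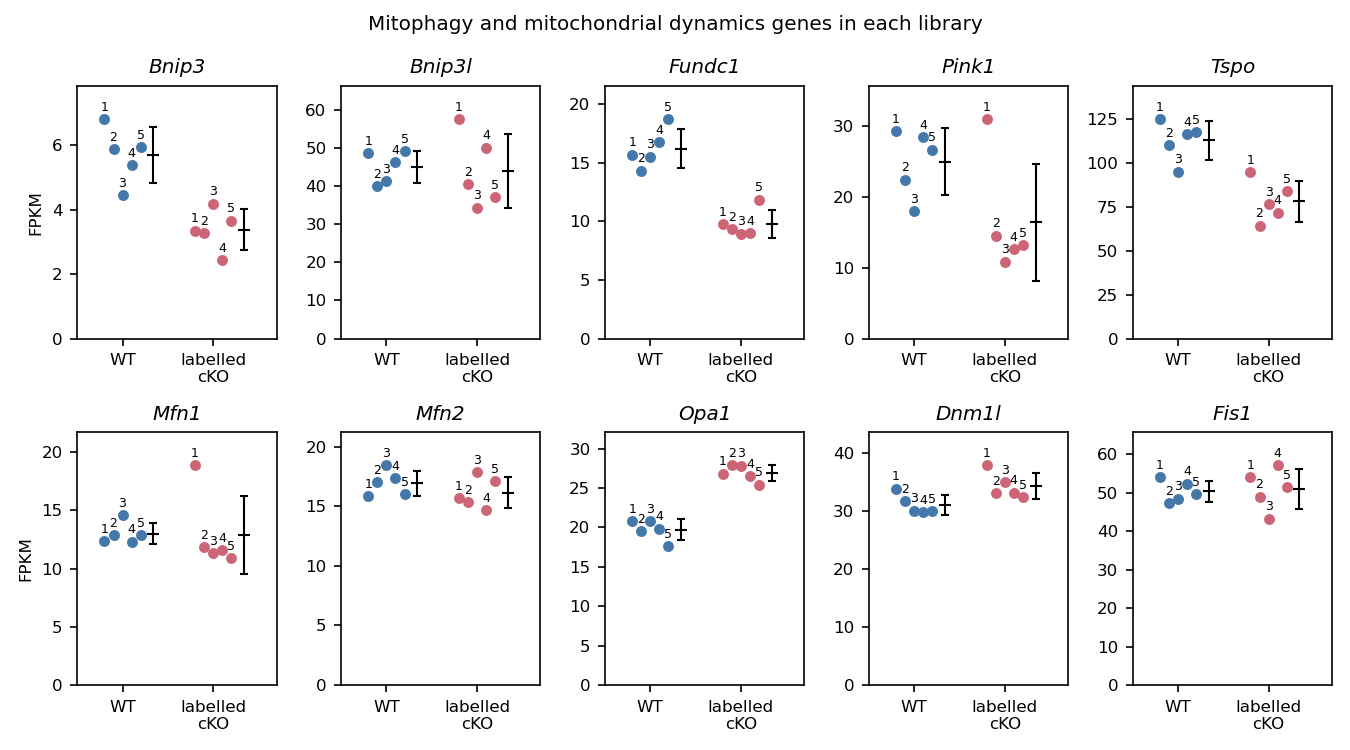
FPKM of each of the 10 genes (vertical axes, each from 0) in the 5 WT libraries (blue) and the 5 libraries labelled cKO (red), numbered by replicate, with bars at the mean ± SD. Bnip3, Fundc1 and Tspo lie lower and Opa1 higher in every library labelled cKO than in any WT library, while library cKO 1 lies apart from the other 4 for Pink1 and Mfn1.

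Levels per length were ordered almost alike in both groups. Tspo was the highest of the 10 genes in WT, at 113 ± 11.3 FPKM, and Bnip3 the lowest, at 5.69 ± 0.863 (SD, n = 5 each). Fis1, at 50.4 ± 2.79, and Bnip3l, at 45.1 ± 4.20, came next after Tspo and overlapped each other. Dnm1l, at 31.1 ± 1.74, stood between them and the next 5 genes, and each neighbouring pair from Pink1 through Opa1, Mfn2 and Fundc1 to Mfn1 had overlapping ranges. In the libraries labelled cKO, Tspo was again the highest and Bnip3 the lowest, each apart from its neighbour. Opa1 stood above Pink1 there, with overlapping ranges, and Fundc1 stood below Mfn1, also with overlap.

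The promoter letters of the largest fall and of the rise are shown first, since hypoxia-inducible factor is known to act on Bnip3. The windows are the 250 bases before the RefSeq start of each gene in GRCm38.p6, read 5′ to 3′ on the gene's strand. Capitals mark matches to ACGTG on either strand. ACGTG is 1 form of the core of the hypoxia response element, and the form GCGTG was not searched. The window of Bnip3 is chr7:138909507-138909756 (minus strand) and that of Opa1 is chr16:29579084-29579333 (plus strand).
Bnip3: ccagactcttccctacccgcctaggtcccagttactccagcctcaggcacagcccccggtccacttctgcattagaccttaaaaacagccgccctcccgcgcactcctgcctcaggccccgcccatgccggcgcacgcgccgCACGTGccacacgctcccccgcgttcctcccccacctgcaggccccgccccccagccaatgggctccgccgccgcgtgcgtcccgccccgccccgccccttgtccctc
Opa1: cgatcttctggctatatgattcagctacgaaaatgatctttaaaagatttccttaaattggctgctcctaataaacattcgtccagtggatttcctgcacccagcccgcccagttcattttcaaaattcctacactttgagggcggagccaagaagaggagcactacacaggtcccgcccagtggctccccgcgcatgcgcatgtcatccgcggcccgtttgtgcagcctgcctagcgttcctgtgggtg
The Bnip3 window held 2 matches, which overlap on opposite strands in the run CACGTG and start 108 bases upstream at the farther one. The Opa1 window held 0. Of the 10 genes, 8 had a window in the RefSeq table. Of these 8, only Bnip3 held ACGTG, against 16.6% of 27025 windows of the same length. The windows of Dnm1l and Fundc1 hold coding bases of these genes, so the count is of windows and not of promoters. Bnip3l and Tspo had no window. The Bnip3 window was 72.4% G and C and the Opa1 window 52%. A match describes the letters only.

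Bnip3 (ENSMUSG00000078566; GRCm39 chromosome 7, 138490690 to 138511253, minus strand) was at 6.81, 5.88, 4.45, 5.38 and 5.93 FPKM in WT 1 to 5. In the libraries labelled cKO 1 to 5 it was at 3.35, 3.26, 4.18, 2.42 and 3.66 FPKM. The groups did not overlap, although WT 3 and cKO 3 came within a small distance of each other. Bnip3 fell by 0.74 on the log2 scale (SE 0.158, 95% interval -1.09 to -0.40, limma adjusted p = 0.00304). The exact two-sided permutation test gave p = 0.00794, the smallest that 5 against 5 allow. Under quantile normalization the log2 fold change was -0.41 (limma adjusted p = 0.0234). Bnip3 is the least abundant of the 10 genes, and its lowest value still stood for about 156 fragments by annotated exon length.

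Bnip3l (ENSMUSG00000022051; chromosome 14, 67222678 to 67246356, minus strand), the paralog known from red cell maturation, was at 48.70, 39.94, 41.37, 46.20 and 49.09 FPKM in WT 1 to 5. It was at 57.61, 40.47, 34.29, 50.09 and 37.03 FPKM in cKO 1 to 5. The libraries labelled cKO were spread on both sides of the WT range. The log2 fold change was -0.06 (SE 0.137, 95% interval -0.36 to 0.24, limma adjusted p = 0.753). Bnip3l therefore did not pass in libraries in which 20 of 21 erythroid markers rose, Hbb-bs from 158 ± 111 to 1028 ± 267 FPKM and Alas2, the erythroid enzyme of heme synthesis, from 9.38 ± 5.79 to 53.8 ± 11.1 FPKM (SD, n = 5 each).

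The pair was compared within libraries. The difference Bnip3l minus Bnip3 on the log2 scale was 2.97 ± 0.185 in WT and 3.66 ± 0.537 in the libraries labelled cKO (SD, n = 5 each). Its change of 0.69 had p = 0.0317 in the exact permutation test and 0.0952 after adjustment over 3 pairs, so a change in the ratio of the paralogs did not pass. Without cKO 3, the change was 0.85 with an adjusted p of 0.0476 in the same exact test, and under quantile normalization it was 0.27 with an adjusted p of 0.429.

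Fundc1 (ENSMUSG00000025040; chromosome X, 17386204 to 17438572, minus strand), another receptor with an LC3-binding motif, was at 15.69, 14.33, 15.50, 16.74 and 18.73 FPKM in WT 1 to 5. It was at 9.77, 9.35, 8.95, 8.97 and 11.83 FPKM in cKO 1 to 5. Each library labelled cKO lay below each WT library, and cKO 5 was above the other 4 of its group. Fundc1 fell by 0.73 on the log2 scale (SE 0.0989, 95% interval -0.94 to -0.51, limma adjusted p = 2.56e-04), with p = 0.00794 in the exact permutation test. Fundc1 is X-linked and the groups differed in Xist. Among the 7 libraries without Xist, WT 1 and 2 and all 5 labelled cKO, the log2 fold change was -0.62 with a limma adjusted p of 0.0180.

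Fundc2, the close relative of Fundc1, moved the other way. It was at 28.49, 26.70, 28.92, 27.58 and 24.59 FPKM in WT 1 to 5 and at 42.55, 37.64, 30.90, 42.88 and 35.10 in cKO 1 to 5, with no overlap. Its log2 fold change was 0.46 (SE 0.0943, limma adjusted p = 0.00238). Fundc2 is X-linked as well. In WT 1 and 2, the WT libraries without Xist, it was at 28.49 and 26.70 FPKM, below each library labelled cKO. No fit of Fundc2 without the Xist libraries is given here. The difference between the changes of Fundc1 and Fundc2 was not tested.

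Pink1 (ENSMUSG00000028756; chromosome 4, 138039346 to 138053618, minus strand) was at 29.19, 22.40, 17.91, 28.39 and 26.64 FPKM in WT 1 to 5. It was at 30.95, 14.52, 10.84, 12.55 and 13.16 FPKM in cKO 1 to 5. Library cKO 1 stood above all 5 WT libraries and the other 4 below all of them. The log2 fold change was -0.69 (SE 0.258, 95% interval -1.26 to -0.12, limma adjusted p = 0.0496), while the exact permutation test gave p = 0.0635. Of 21 alternative settings the fall passed in 5. Without cKO 1 it was -0.94 with a limma adjusted p of 6.79e-04, and among libraries without Xist it was -0.75 with an adjusted p of 0.181.

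Library cKO 1 also differed from the rest of its group in lineage markers. Its summed markers were the highest of the libraries labelled cKO for neutrophils (2662 FPKM, range 151 to 2662, against 2764 to 3766 in WT), for megakaryocytes (212 FPKM) and for mast cells and basophils (592 FPKM). Single markers did not all follow, since Mpo and Elane were highest in cKO 5, at 391.92 and 247.11 FPKM, against 277.33 and 183.65 in cKO 1. Whether any of these cells took part in the Pink1 level of cKO 1 was not tested.

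Tspo (ENSMUSG00000041736; chromosome 15, 83447735 to 83458406, plus strand) encodes the translocator protein, an outer-membrane protein that binds cholesterol and porphyrins. It was at 125.20, 110.28, 95.15, 116.50 and 117.79 FPKM in WT 1 to 5 and at 94.81, 64.37, 76.65, 71.75 and 84.03 in cKO 1 to 5. The groups did not overlap, but only because WT 3 stood just above cKO 1. Tspo fell by 0.53 on the log2 scale (SE 0.108, 95% interval -0.77 to -0.30, limma adjusted p = 0.00225), with p = 0.00794 in the exact permutation test. Tspo is abundant in myeloid cells, whose markers did not all move alike in the same libraries. Of 15 monocyte and dendritic cell markers 14 fell, and of 15 neutrophil markers 7 fell and 8 did not pass, against 28.3% lower of all genes tested. The part of those cells in the Tspo level was not tested.

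Tspo2, the paralog known from erythroid cells, went the opposite way to Tspo. It was at 17.39, 13.13, 18.49, 13.61 and 11.46 FPKM in WT 1 to 5 and at 37.19, 31.80, 27.32, 36.14 and 24.97 in cKO 1 to 5. Its log2 fold change of 1.09 (SE 0.153, limma adjusted p = 3.01e-04) made it the one relative past a 2-fold change. The difference between Tspo and Tspo2 was not tested.

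**Figure D2:**
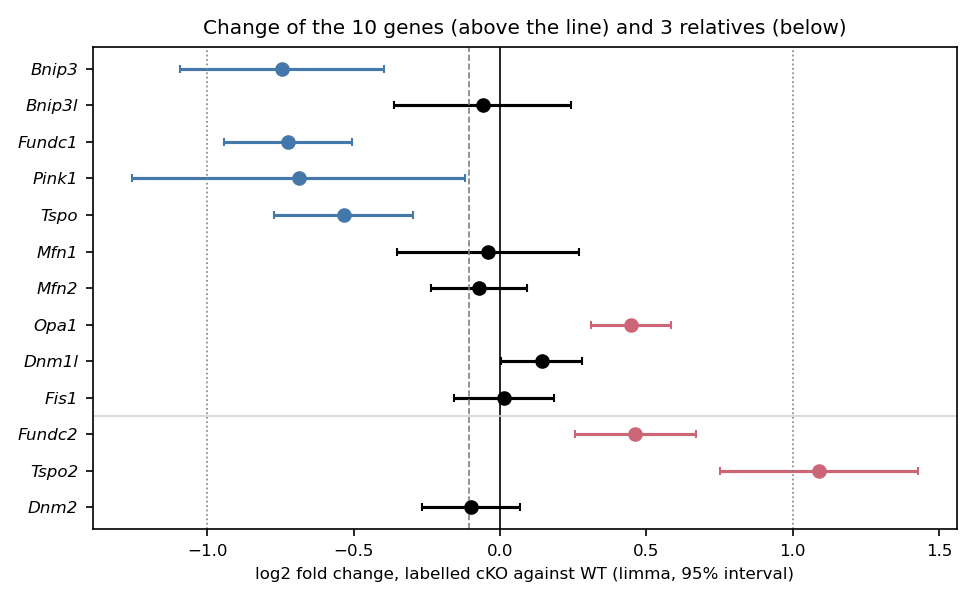
Log2 fold change of the libraries labelled cKO against WT on the log2(FPKM + 0.1) scale for the 10 genes and 3 relatives, with the 95% interval from limma (n = 5 each). Blue marks genes that fell, red genes that rose and black genes that did not pass, dotted lines mark a 2-fold change and the dashed line the median of all genes tested, -0.11. The intervals of Bnip3, Fundc1, Pink1 and Tspo lie below 0, that of Opa1 lies above 0, and the relatives Fundc2 and Tspo2 lie on the other side of 0 from Fundc1 and Tspo.

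Among fusion genes, Opa1 (ENSMUSG00000038084; chromosome 16, 29398108 to 29473858, plus strand), the dynamin-related GTPase of the inner membrane, was at 20.76, 19.53, 20.83, 19.84 and 17.65 FPKM in WT 1 to 5. It was at 26.80, 27.86, 27.83, 26.53 and 25.40 FPKM in cKO 1 to 5. Every library labelled cKO stood well above every WT library, and cKO 1 was within its group. Opa1 rose by 0.45 on the log2 scale (SE 0.0620, 95% interval 0.31 to 0.58, limma adjusted p = 2.81e-04), with p = 0.00794 in the exact permutation test.

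Mfn1 (ENSMUSG00000027668; chromosome 3, 32583599 to 32645888, plus strand), a mitofusin of the outer membrane, was at 12.37, 12.89, 14.59, 12.33 and 12.85 FPKM in WT 1 to 5. It was at 18.87, 11.83, 11.34, 11.60 and 10.88 FPKM in cKO 1 to 5. Library cKO 1 was the highest of the 10 libraries and the other 4 labelled cKO were below all 5 WT libraries. The log2 fold change was -0.04 (SE 0.141, 95% interval -0.35 to 0.27, limma adjusted p = 0.837), and without cKO 1 it was -0.18 with an adjusted p of 0.0407. As with Pink1, the value for Mfn1 rests on that library.

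Mfn2 (ENSMUSG00000029020; chromosome 4, 147955508 to 147989585, minus strand), the mitofusin that also tethers mitochondria to the endoplasmic reticulum, was at 15.83 to 18.42 FPKM in WT (median 17.00) and at 14.66 to 17.83 in the libraries labelled cKO (median 15.69). The ranges overlapped over most of their length. The log2 fold change was -0.07 (SE 0.0740, 95% interval -0.23 to 0.09, limma adjusted p = 0.463). The difference Mfn1 minus Mfn2 within libraries was -0.38 in WT and -0.35 in the libraries labelled cKO, a change of 0.03 (exact permutation p = 0.921, adjusted p = 0.921 over 3 pairs), which was -0.12 without cKO 1.

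Among fission genes, Dnm1l (ENSMUSG00000022789; chromosome 16, 16128677 to 16176904, minus strand), which encodes the fission GTPase DRP1, was at 33.92, 31.72, 30.12, 29.84 and 29.98 FPKM in WT 1 to 5. It was at 37.93, 33.17, 35.08, 33.21 and 32.43 FPKM in cKO 1 to 5. WT 1 overlapped the lower libraries labelled cKO. The log2 fold change was 0.14 (SE 0.0628, 95% interval 0.00 to 0.28) with a limma adjusted p of 0.0879, and the exact permutation test for this gene alone gave p = 0.0397. Under median-ratio scaling, which brings the median of all genes to -0.01, it was 0.25 with a limma adjusted p of 0.00709, and without WT 1 it was 0.17 with an adjusted p of 0.0489. With a covariate for Xist, or in libraries without Xist alone, it was 0.065 (limma adjusted p = 0.573 and 0.634), and under quantile normalization 0.085 (limma adjusted p = 0.340).

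Fis1 (ENSMUSG00000019054; chromosome 5, 136982101 to 136995089, plus strand), an outer-membrane adaptor of fission, was at 47.29 to 54.04 FPKM in WT (median 49.69) and 43.26 to 57.13 in the libraries labelled cKO (median 51.49). The WT range lay inside the other. The log2 fold change was 0.01 (SE 0.0776, 95% interval -0.16 to 0.18, limma adjusted p = 0.908). The difference Dnm1l minus Fis1 within libraries changed by 0.13 (exact permutation p = 0.175, adjusted p = 0.262 over 3 pairs). Without cKO 3 that change was 0.064, without cKO 4 it was 0.184, and in libraries without Xist it was 0.058. Of the other dynamins, Dnm2 was at 28.0 ± 1.64 FPKM in WT and 26.2 ± 2.68 in the libraries labelled cKO (SD, n = 5 each; limma adjusted p = 0.317), and Dnm1 and Dnm3 were below the filter.

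**Figure D3:**
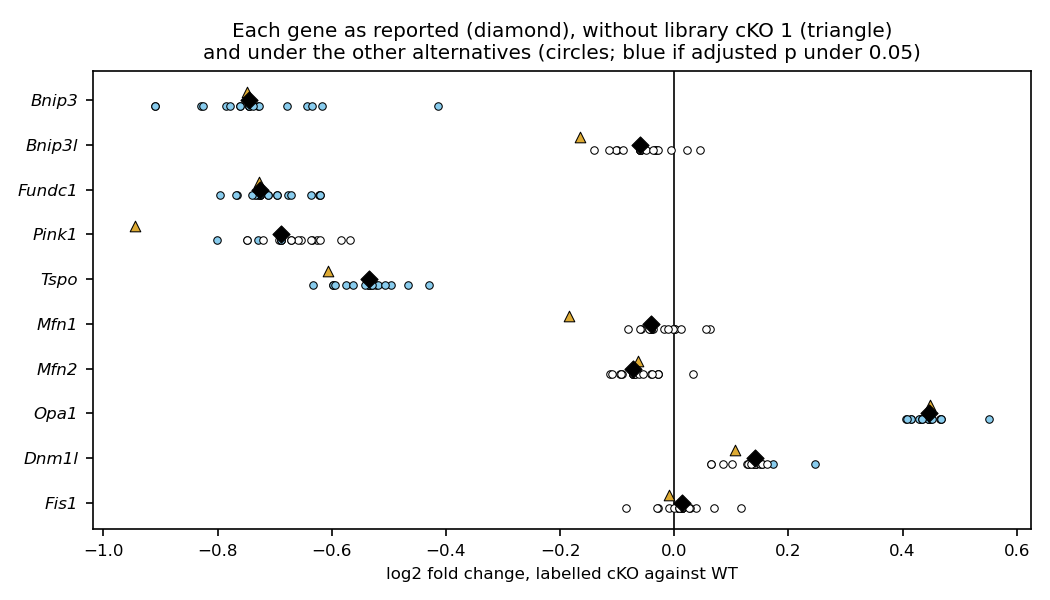
Log2 fold change of each of the 10 genes on the log2 scale as reported (black diamond), without library cKO 1 (triangle) and under the other 20 alternatives (circles, filled blue where the limma adjusted p was under 0.05). Bnip3, Fundc1, Tspo and Opa1 stay on one side of 0 with filled circles throughout, and the triangles of Bnip3l, Pink1 and Mfn1 stand to the left of their other points.

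The most similar profiles to that of Bnip3, the gene with the largest change, were those of Foxk1, Etv3 and Pgm1 among the 12350 genes that averaged 1 FPKM or more. Likeness was the root mean square difference of centred log2 values over the 10 libraries, and it was 0.0994, 0.116 and 0.116. Foxk1, a forkhead transcription factor, was at 13.1 ± 1.10 FPKM in WT and 7.82 ± 1.09 in the libraries labelled cKO (SD, n = 5 each). All 10 libraries share 1 contrast, so such likeness is a description of this table.

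Genes that work around the receptors were read from lists. Of 29 mitophagy adaptors and regulators tested, 14 rose (48.3%), 5 fell (17.2%) and 10 did not pass, with a median log2 fold change of 0.27, against 16.7% and 28.3% of all genes tested. The 2 with the largest rises were Marchf5, a ubiquitin ligase of the outer membrane, from 36.1 ± 3.10 to 61.0 ± 4.32 FPKM, and Bcl2l13, a further outer-membrane receptor, from 19.5 ± 0.591 to 32.2 ± 3.48 FPKM (SD, n = 5 each; limma adjusted p = 6.12e-05 and 9.54e-05). The kinase Src had the largest fall, from 3.72 ± 1.60 to 0.438 ± 0.201 FPKM (log2 fold change -2.79, limma adjusted p = 1.62e-04), and Rab7, the small GTPase of late endosomes, fell from 100.3 ± 4.42 to 82.0 ± 6.10 FPKM (limma adjusted p = 0.00316). So Bcl2l13 was higher in the libraries in which Bnip3 and Fundc1 were lower.

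Of 31 core autophagy genes tested, 7 rose (22.6%), 9 fell (29.0%) and 15 did not pass, with a median of -0.08. The share that fell was near the 28.3% of all genes tested, so it is no result about the list. Gabarap, an LC3-family protein that mitophagy receptors bind, fell from 75.4 ± 4.57 to 59.9 ± 3.29 FPKM, and Ulk2, an initiating kinase, fell from 7.66 ± 0.995 to 4.41 ± 0.169 FPKM (SD, n = 5 each; limma adjusted p = 0.00129 and 2.02e-04). The LC3 family did not move as 1. Gabarapl1 rose from 46.9 ± 2.35 to 55.8 ± 6.13 FPKM (SD, n = 5 each; limma adjusted p = 0.0246), and Gabarapl2, Map1lc3a and Map1lc3b did not pass. The median of this list was 0.02 under median-ratio scaling and 0.11 under quantile normalization, so its sign depends on the scaling.

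Of 25 regulators of fusion and fission tested, 14 rose (56%), 2 fell (8%) and 9 did not pass, with a median of 0.27. Among all genes tested, 16.7% rose and 28.3% fell. Usp30, Marchf5 and Mul1 are also in the list of mitophagy adaptors, so the 2 lists are not separate. Spire1, an actin nucleator at mitochondria, rose from 24.1 ± 2.83 to 41.5 ± 4.61 FPKM and Miga2, an outer-membrane fusion factor, from 4.37 ± 0.753 to 7.57 ± 1.05 (SD, n = 5 each; limma adjusted p = 1.73e-04 and 9.06e-04). Inf2, a formin that acts before DRP1, fell from 14.1 ± 1.97 to 5.10 ± 1.02 FPKM (log2 fold change -1.46, limma adjusted p = 7.91e-05). The remaining genes in this paragraph were named for their role after their values were seen. Among the DRP1 adaptors other than Fis1, Mff rose by 0.62 on the log2 scale and Mief1 by 0.27 (limma adjusted p = 5.68e-04 and 0.0259), and Mief2 was at -0.09 (adjusted p = 0.754). Oma1 and Yme1l1, which encode proteases that cut OPA1, were at -0.21 and -0.08 (limma adjusted p = 0.383 and 0.314), and neither passed. Afg3l2, which encodes another mitochondrial protease subunit of the list, rose by 0.73 on the log2 scale (limma adjusted p = 1.07e-04).

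Genes of mitochondrial content, which encode abundant mitochondrial proteins, were mostly higher. Of 20 tested, 15 rose (75%), 0 fell and 5 did not pass, against 16.7% higher and 28.3% lower of all genes tested. Their median was 0.37. Their summed level was 1764 to 2229 FPKM in WT and 2365 to 2827 in the libraries labelled cKO, without overlap. Slc25a5, an ADP/ATP carrier of the inner membrane, rose from 418 ± 24.0 to 552 ± 42.7 FPKM and Tomm20, an import receptor of the outer membrane, from 28.4 ± 2.35 to 48.1 ± 10.6 (SD, n = 5 each; limma adjusted p = 0.00108 and 9.86e-04). Of 15 regulators of mitochondrial biogenesis tested, 1 rose and 0 fell, against the same shares of all genes, with a median of 0.06. The gene that rose was Pprc1, a coactivator, with a log2 fold change of 0.33 (limma adjusted p = 0.0147).

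Hypoxia targets, the class to which Bnip3 belongs, were mixed. Of 22 tested other than Bnip3, 3 rose (13.6%), 9 fell (40.9%) and 10 did not pass, with a median of -0.18. Among all genes tested, 16.7% rose and 28.3% fell. Hk2, a hexokinase, fell from 12.9 ± 1.94 to 4.40 ± 1.40 FPKM and Car9, a carbonic anhydrase, from 3.48 ± 0.874 to 1.05 ± 0.502, whereas Ldha, lactate dehydrogenase A, rose from 165 ± 13.2 to 263 ± 34.3 (SD, n = 5 each; limma adjusted p = 2.07e-04, 7.56e-04 and 4.25e-04). Among libraries without Xist the median of the list was 0.07, so its sign depends on those libraries.

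**Figure D4:**
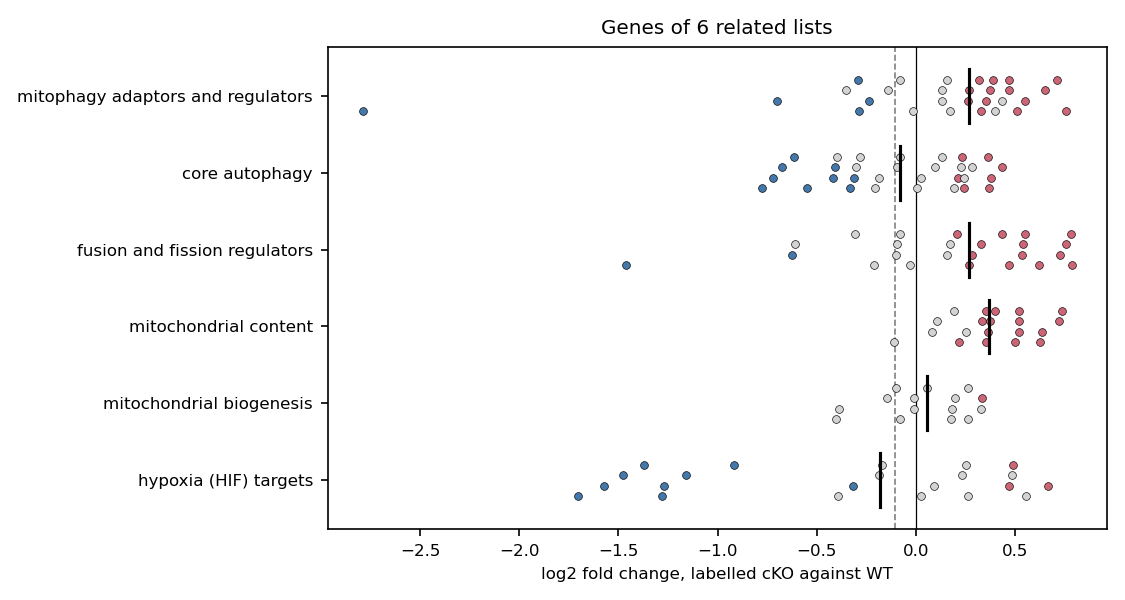
Log2 fold change of every tested gene of 6 related lists (points on the log2(FPKM + 0.1) scale; red rose, blue fell, gray did not pass), with the list median as a black bar and the median of all genes as a dashed line at -0.11. The list medians run from -0.18 for hypoxia targets to 0.37 for mitochondrial content.

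Markers of other cell types moved with the same contrast. All 12 megakaryocyte markers and all 8 mast cell and basophil markers fell, with summed levels of 324 to 1452 FPKM in WT against 96.6 to 212, and of 696 to 1386 against 91.8 to 592. Of 15 neutrophil markers, 7 fell and 8 did not pass. Of 9 B-lymphoid markers tested, 6 fell, with sums of 33.2 to 40.3 against 1.34 to 11.5 FPKM, and of 10 T and NK cell markers 6 fell, with sums of 82.4 to 105.9 against 7.6 to 29.9. Of 11 stem and progenitor markers, 10 fell, Kit from 45.9 ± 7.83 to 25.5 ± 5.57 FPKM and Cd34 from 25.6 ± 3.44 to 3.10 ± 2.33 (SD, n = 5 each), with sums of 153 to 204 against 55.8 to 94.95 FPKM. None of the markers tested was at 0 in all 5 libraries labelled cKO. The 4 falls and 1 rise among the 10 mitochondrial genes were measured in these same libraries, and the part of any cell type in them was not tested.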

How the data were processed

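The authors filtered the reads, aligned them with HISAT2 to the GRCm39 build, and deposited a table of FPKM with 2 decimals. The submitters' processing notes list cutadapt 1.9.1, HISAT2 2.0.1 and HTSeq 0.6.1, and the annotation and gene lengths are not given in the sources used here. FPKM are not counts, so the count test of the study was not run. The depth was read from genes with a single transcript of 300 to 1500 bp, for which 95.3% to 95.8% of values up to 20 fragments were within 0.2 of a whole number. Positions are from GENCODE vM39. No pair of libraries in a group agreed within sampling noise (chi-square per degree of freedom at least 4.08).

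limma 3.58.1 in R 4.3.3 (lmFit, eBayes with a trend) compared log2(FPKM + 0.1) between 5 and 5 libraries over the 18742 genes that averaged 0.1 FPKM or more, two-sided, with Benjamini-Hochberg adjustment. Exact permutation tests used scipy 1.17.1 in Python 3.11.15. The p-values measure the spread between libraries, each taken as 1 mouse. The steps were tested on simulated data with the spread of the WT libraries. Of 100 genes given a log2 change of 0.5, 44 passed, and of 100 given a change of 2, 92 passed. Only these genes were changed there, unlike in the data. A gene that did not pass may therefore still have changed. Fold changes understate low genes.

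The 10 genes and all lists, drawn from general knowledge, were chosen with earlier results of these data known. Named genes were the members, their relatives, checks and markers, and from each list the most abundant gene and up to 3 with the largest changes among those that passed with a mean of at least 1 FPKM. For the gene with the largest change, the 3 nearest profiles were named. Mff, Mief1, Mief2, Oma1, Yme1l1, Afg3l2, Gabarapl1, Gabarapl2, Map1lc3a and Map1lc3b lie outside this rule and were named for their role after their values were seen. Ahsp and Vpreb1 were not analysed here.

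Each alternative changed 1 choice: the pseudocount (0.01 or 1), the filter (none, or an average of 1 FPKM), the scaling (median-ratio, equal sum or quantile), eBayes without the trend, a block for replicate number, a covariate for Xist above 1 FPKM, only libraries without Xist, and each library left out.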

Additional observations from a re-analysis of the deposited data

Results flagged for a closer look

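The highest or lowest of the 5 values in a group was flagged by Dixon's ratio. This ratio is its gap to the nearest value divided by the range of the group, and the limit was Dixon's 95% limit. Of 134 groups examined 13 were flagged, where chance gives about 1 in 20, or 6.7. Of the 20 groups of the mitophagy and dynamics genes, 4 were flagged, and library cKO 1 gave 5 of the 13.

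Pink1 was at 30.95 FPKM in cKO 1, against 10.84 to 14.52 in the other 4 libraries of its group. Mfn1 was at 18.87 FPKM in the same library, against 10.88 to 11.83. Mfn1 was also at 14.59 FPKM in WT 3, against 12.33 to 12.89 in the rest of WT. Fundc1 was at 11.83 FPKM in cKO 5, against 8.95 to 9.77.

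Among the other genes, cKO 1 stood apart for Dnm2 at 30.95 FPKM (24.35 to 25.45 in the other 4), for Gabpa at 27.65 (20.72 to 22.11) and for Ldha at 203.65 (266.66 to 291.63). Library cKO 5 stood apart for Hbb-bs at 563.3 FPKM (1066.1 to 1234.26), Gp6 at 0.86 (0.32 to 0.42), Dntt at 1.56 (0 to 0.41) and Flt3 at 5.86 (0.37 to 1.79). WT 3 stood apart for the basophil genes Prss34 at 328.66 FPKM (671.4 to 722.61) and Mcpt8 at 204.94 (338.19 to 371.66).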

How the results depend on the processing

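Bnip3, Fundc1, Tspo and Opa1 passed in 21 of 21 alternatives, with log2 fold changes of -0.91 to -0.41, -0.80 to -0.62, -0.63 to -0.43 and 0.41 to 0.55. None of the 10 genes was called at 2-fold in any. The covariate for Xist and the fit of libraries without Xist give the same log2 fold changes, since no library labelled cKO had Xist above 1 FPKM. Both compare WT 1 and 2 with the libraries labelled cKO, so they are not separate checks. Pink1 no longer passed with a pseudocount of 0.01 (-0.69) or 1 (-0.65), no filter (-0.69), median-ratio scaling (-0.58), quantile normalization (-0.67), no trend (-0.69), and with a covariate for Xist or only libraries without Xist (-0.75 each). With each library left out it ranged from -0.94 to -0.57 and passed only without WT 3 or cKO 1. Its adjusted p ran from 6.79e-04 to 0.181 over the 21. Dnm1l passed under median-ratio scaling (0.25), so 2 genes were then higher, and without WT 1, with a leave-one-out range of 0.11 to 0.17 and 1 to 2 genes higher. Dnm1l was at 0.065 with the covariate and without Xist libraries and at 0.085 under quantile normalization.

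Signs changed for genes that did not pass. Under median-ratio scaling Bnip3l was at 0.044, Mfn1 at 0.063 and Mfn2 at 0.032. Under quantile normalization Mfn1 was at 0.055 and Fis1 at -0.085, and with an equal sum Fis1 was at -0.028. With each library left out, Bnip3l ranged from -0.16 to 0.022, Mfn1 from -0.18 to 0.012 and Fis1 from -0.030 to 0.071. With each library left out, the difference in change ranged from 0.52 to 0.85 for Bnip3l minus Bnip3, from -0.12 to 0.11 for Mfn1 minus Mfn2 and from 0.064 to 0.184 for Dnm1l minus Fis1. Under quantile normalization the 3 differences were 0.27, 0.083 and 0.17, and in libraries without Xist 0.88, 0.028 and 0.058.

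Whether the libraries were paired by number was not settled. Same-numbered libraries correlated at 0.18, 0.09, -0.08, 0.00 and 0.19 after removal of group means. Libraries 1, 2 and 5 were best matched by their own number, and libraries 3 and 4 were not. With the replicate block, the 10 genes gave 1 higher and 4 lower, all genes 3111 and 5069, and mitochondrial biogenesis 3 higher.

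All-gene calls at 2-fold were 356 higher and 1486 lower with a pseudocount of 1, 1581 and 2245 under quantile normalization, and 536 higher without Xist libraries, where 1640 genes passed as higher and 3075 as lower. With the covariate, 2035 passed as higher.

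For the lists, a median that moved by less than its SD between replicates was taken as unmoved. Mitophagy adaptors had 3 lower under median-ratio scaling, quantile normalization and the covariate, 1 without Xist libraries and 3 to 7 with a library left out. Their median was 0.37 under median-ratio scaling, 0.23 with an equal sum and 0.25 to 0.31 with a library left out. Core autophagy had 1 higher and 5 lower with the covariate, 0 and 2 without Xist libraries, 4 lower under quantile normalization (median 0.11), a median of 0.022 under median-ratio scaling and 4 to 7 higher with a library left out. Fusion and fission regulators had 1 lower with the covariate and without Xist libraries, and medians of 0.37 and 0.42 under median-ratio scaling and quantile normalization. Mitochondrial biogenesis had 2 higher at a mean of at least 1 FPKM, 4 under median-ratio scaling, 6 under quantile normalization (median 0.28), 0 with the covariate and without Xist libraries, and 1 lower with no filter. With a library left out it had 1 to 4 higher, 0 to 2 lower and a median of 0.040 to 0.20. Hypoxia targets had 5 higher under median-ratio scaling and quantile normalization (median -0.024), 4 lower without Xist libraries, 2 to 6 higher with a library left out, and medians of -0.32 at a mean of at least 1 FPKM and 0.066 with the covariate and without Xist libraries. Without Xist libraries neutrophil and B-lymphoid markers had 2 lower each, and B-lymphoid markers had 3 at a mean of at least 1 FPKM. Their median was -2.84 and -0.56 with pseudocounts of 0.01 and 1. T and NK markers had 1 higher under quantile normalization and a median of -0.89 with a pseudocount of 1. Stem and progenitor markers had medians of -0.86 with a pseudocount of 1, -1.003 under quantile normalization and -1.82 to -1.18 with a library left out. The cause of these changes was not tested.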
